A study of Mus musculus with 7 samples.

Results

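Pools of pancreatic lymph nodes (PLN) with a high signal of the islet hormone genes were set against PLN pools in which that signal lay at or near background. The arrays were grouped by 1 probe of Ins2, the major insulin gene of the mouse, through its log2 ratio of PLN over the other node after loess normalization. The ratio was above 2 on 4 of the 7 arrays, called islet-high here, and under 0.5 on the other 3, called islet-low. Each array compared the PLN, labelled with the red dye Cy5, with the mesenteric lymph node (MLN) or the inguinal lymph node (ILN), labelled with the green dye Cy3. All mice were 12-week-old females, and each channel held RNA from the pooled nodes of 5 animals of a single strain. The islet-high arrays were BALB/c PLN with MLN, FVB PLN with MLN, FVB PLN with ILN, and NOD PLN with MLN. The islet-low arrays were NOD PLN with ILN, NOD.B10 PLN with ILN, and NOD.B10 PLN with MLN. No treatment is recorded in the labels, and the labels do not say if arrays of the same strain used the same PLN pool.

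The islets of Langerhans are clusters of endocrine cells in the pancreas, in which beta cells make insulin and amylin, alpha cells make glucagon and delta cells make somatostatin. Around them lie the acinar cells, which make digestive enzymes, and the ducts that carry those enzymes to the gut. The PLN drains this tissue and lies against it, and it is the node in which T cells first meet islet antigens in NOD mice, a strain that develops autoimmune diabetes. NOD.B10 mice carry another haplotype of the major histocompatibility complex on the NOD background.

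Strain, scanner and other node did not vary independently of the grouping. FVB and BALB/c arrays were all islet-high and NOD.B10 arrays all islet-low, and NOD was the strain with an array in each group. An earlier scanner read the BALB/c array and the NOD array with MLN, both islet-high, while a later scanner read the other 5. The other node was unbalanced too, since 3 of the 4 islet-high arrays and 1 of the 3 islet-low arrays carried MLN. PLN levels followed the scanner over all genes. The median absolute difference in log2 PLN level between 2 arrays was 0.100 to 0.231 for the 11 pairs read on the same scanner and 0.238 to 0.270 for the 10 pairs read on different scanners. In PLN, 45.9% to 59.0% of the probes on an array passed the scanner's mark for signal well above background. Of 5 lymph node markers, Cd3e, Cd79a, Ms4a1 and Cxcl13 were well above background in PLN on all 7 arrays, and Ccl21a was not matched to a probe.

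Ins2 set the groups, so its values are a description. Its log2 ratio was 2.53 on the BALB/c array, 2.62 on the FVB array with ILN, 2.35 on the FVB array with MLN and 2.90 on the NOD array with MLN. It was -0.01 on the NOD array with ILN, 0.25 on the NOD.B10 array with ILN and 0.26 on the NOD.B10 array with MLN. The values nearest to the thresholds were therefore 2.35 inside and 0.26 outside. In log2 PLN level, the same probe stood at 10.59, 9.96, 9.71 and 10.63 on these islet-high arrays and at 6.54, 6.52 and 6.71 on the islet-low arrays. A second Ins2 probe had ratios of 2.23 to 2.87 on the islet-high arrays and of -0.07 to 0.03 on the islet-low arrays. These 2 probes were the only ones of 41174 that met the rule. The other node also held more Ins2 signal on the same arrays, at log2 levels of 7.34 to 8.06 on the islet-high and of 6.26 to 6.55 on the islet-low arrays.

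Of the other islet hormone genes, 3 separated the groups without overlap in both the PLN level and the ratio. These were Ins1, the other insulin gene of the mouse, Gcg, which encodes glucagon, and Iapp, which encodes amylin. Their promoters are shown because these genes of beta and alpha cells separated the same arrays. The sequences run 5′ to 3′ on the gene's strand in windows of 300 bases that span the gene's start, from RefSeq on GRCm38.p6, at chr19:52264047-52264346 on the plus strand (Ins1), chr2:62483604-62483903 on the minus strand (Gcg) and chr6:142298175-142298474 on the plus strand (Iapp). Capitals mark TAAT, the core read by many homeodomain factors, and CATCTG, an E-box sequence, on either strand.
Ins1: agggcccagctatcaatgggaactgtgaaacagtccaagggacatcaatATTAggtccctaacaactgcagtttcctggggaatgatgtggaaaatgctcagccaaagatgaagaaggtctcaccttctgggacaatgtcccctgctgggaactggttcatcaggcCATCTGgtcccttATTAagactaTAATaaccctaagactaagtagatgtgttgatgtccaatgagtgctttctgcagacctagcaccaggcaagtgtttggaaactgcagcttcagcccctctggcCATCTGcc
Gcg: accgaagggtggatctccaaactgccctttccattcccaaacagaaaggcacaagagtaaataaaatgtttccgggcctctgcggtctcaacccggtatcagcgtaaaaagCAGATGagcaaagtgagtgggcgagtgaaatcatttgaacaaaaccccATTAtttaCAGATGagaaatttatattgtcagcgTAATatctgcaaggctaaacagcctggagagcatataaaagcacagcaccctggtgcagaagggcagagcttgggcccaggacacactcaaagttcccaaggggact
Iapp: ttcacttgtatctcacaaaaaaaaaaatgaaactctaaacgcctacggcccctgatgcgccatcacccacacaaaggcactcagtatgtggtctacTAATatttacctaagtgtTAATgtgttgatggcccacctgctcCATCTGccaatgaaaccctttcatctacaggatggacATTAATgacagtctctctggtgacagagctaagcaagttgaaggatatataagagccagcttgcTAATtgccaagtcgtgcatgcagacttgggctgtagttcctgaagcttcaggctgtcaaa
TAAT matched 3 times in the Ins1 window, 2 times in Gcg and 5 times in Iapp, with overlapping matches counted separately, and 58.0% of 32851 RefSeq promoter windows of this length held it on either strand. CATCTG matched 2 times in Ins1, 2 times in Gcg and 1 time in Iapp, and 17.2% of all windows held it. The matches are letters in a window and do not show a bound factor.

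Ins1 had log2 PLN levels of 8.69 on the BALB/c array, 8.11 and 7.72 on the FVB arrays with ILN and MLN, and 8.66 on the NOD array with MLN. On the NOD array with ILN and the NOD.B10 arrays with ILN and MLN it was 6.48, 6.54 and 6.37. Ins1 was not well above background in PLN on any islet-low array, so the difference was at least 3.56-fold. Gcg had levels of 7.62, 8.09, 7.74 and 7.68 on the islet-high arrays in the same order, and of 6.29, 6.32 and 6.26 on the islet-low arrays. It too was not well above background on the islet-low arrays, and the difference was at least 2.75-fold. The Gcg ratio was 0.60, 1.1, 1.02 and 0.81 on the islet-high arrays and -0.03, -0.23 and -0.08 on the islet-low arrays, so PLN exceeded the other node on every islet-high array and on no islet-low array. Gcg of alpha cells and Ins1 of beta cells separated the same arrays. Both were detected in PLN on islet-high arrays alone, so a separation in the other direction was not open to them. The highest array differed, NOD with MLN for the Ins2 ratio and FVB with ILN for the Gcg ratio. Iapp had levels of 7.14, 6.79, 6.68 and 6.65 against 6.33, 6.37 and 6.32, a difference of at least 1.38-fold. Its ratio was near 0 on both NOD arrays, at -0.01 with MLN and -0.02 with ILN, so the groups barely separated there.

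The remaining hormone genes lay close to background. Sst, which encodes somatostatin, had PLN levels of 6.61 to 6.79 on the islet-high arrays and of 6.36 to 6.49 on the islet-low arrays. These ranges did not overlap, and the difference of at least 1.19-fold was small. Ppy, which encodes pancreatic polypeptide, overlapped between the groups, at 6.51 to 6.58 and 6.35 to 6.51. Pyy, which encodes peptide YY, overlapped at 6.89 to 7.01 and 6.57 to 7.18 with its brighter probe. Ghrl, the ghrelin gene, was well above background in PLN on 1 array with either of its probes. In all, 7 of 8 islet hormone genes passed the filter on dim probes, and 5 of them had higher PLN levels on every islet-high array, Ins2 among them. In the other node 4 did so. Over all genes measured on every array 8.51% were higher in PLN on every islet-high array, and in the other node 5.42% were higher and 2.49% lower. The shares cannot be read as support, since Ins2 set the groups and a hormone gene could pass the filter through the islet-high arrays alone.

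**Figure D1:**
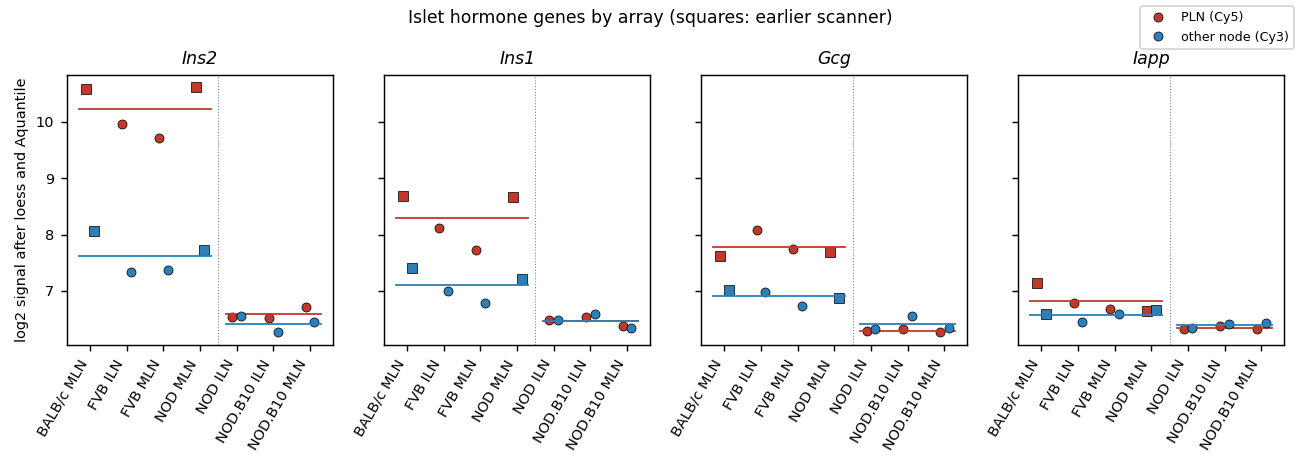
Log2 signal of Ins2, Ins1, Gcg and Iapp on each array in the PLN channel (red) and the channel of the other node (blue), after loess and Aquantile normalization, with squares for the earlier scanner and lines for group means. The 4 islet-high arrays lie left of the dotted line, and in PLN each of these genes is higher on them than on all 3 islet-low arrays, for example 7.62 to 8.09 against 6.26 to 6.32 for Gcg.

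Of 26 granule and secretion genes, 13 passed the filter, and 2 of these were higher in PLN on every islet-high array, beside 8.51% of all genes. These were Chga, the granule protein chromogranin A, and Ero1b, an oxidase that helps fold proinsulin. So small a count cannot be read against the share of all genes. Chga had PLN levels of 6.67 to 7.12 against 6.51 to 6.61. Ero1b had 8.91 to 9.45 against 8.11 to 8.46. The median difference of the 13 genes was 0.14 on the log2 scale, beside 0.04 over all genes. Of 15 islet transcription factor genes, 5 passed the filter, 0 separated the groups in PLN level, and the median difference was 0.34, beside 0.26 for the hormone genes without Ins1 and Ins2. The largest difference among them was that of Foxa2, a factor of endoderm-derived organs, at 6.77 on the BALB/c array, 7.64 to 7.87 on the other islet-high arrays and 6.52 to 6.79 on the islet-low arrays.

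Across all other genes, the PLN level was fitted against the grouping with limma on 18824 genes and unnamed probes, and the ratio, with a term for the other node, on 29823. Insulin genes were left out, and islet genes are given as values only. At an adjusted p under 0.05 (Benjamini-Hochberg), 0 genes (0%) were called in PLN level and 0 (0%) in the ratio. The lowest adjusted p outside the islet lists was 0.144 in PLN level and 0.303 in the ratio. At an unadjusted p under 0.05 there were 2221 genes in PLN level, where chance gives 941, and 3010 in the ratio, where chance gives 1491. In PLN level 7.41% were higher and 4.39% lower on the islet-high arrays, and in the ratio 6.29% were higher and 3.81% lower. The count in PLN level depended on the scanner and the strain. With the scanner as a block it was 192 (95 higher, 97 lower), and within the later scanner alone it was 310 (18.2% of genes were higher and 17.1% lower without overlap there), and both compare FVB with NOD and NOD.B10 pools. With the strain as a block the count was also above 0. That fit rests on 1 NOD array in each group, so its count is not read as a result. Without the NOD array with MLN 25 genes were called in PLN level, and without the NOD.B10 array with MLN 1 gene. In the ratio genes were called only without the FVB array with ILN or without the NOD.B10 array with MLN. Each of these fits takes the group difference from arrays of 1 other node, with 1 array in a group. Their counts are therefore not read as results.

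Genes of acinar enzymes had signal in PLN in both groups, and the source of their RNA was not tested. Of 28 acinar enzyme genes, 24 were on the array and all 24 passed the filter. Their median log2 PLN level was 15.40 on the BALB/c array, 15.24 on the FVB array with ILN, 14.73 on the FVB array with MLN and 17.26 on the NOD array with MLN. It was 13.45 on the NOD array with ILN, 13.82 on the NOD.B10 array with ILN and 14.75 on the NOD.B10 array with MLN. Saturation limits these medians. In PLN 17 of the 24 genes were saturated on at least 1 array and 8 on all 4 islet-high arrays. The other 7, saturated on no array in either channel, were Cela2a, Ctrb1, Ctrl, Klk1, Klk1b5, Pla2g1b and Pnliprp2. Their median PLN level was 11.71 (BALB/c), 13.64 and 13.42 (FVB with ILN and MLN) and 15.76 (NOD) on the islet-high arrays, and 11.12 (NOD), 10.96 and 12.34 (NOD.B10 with ILN and MLN) on the islet-low arrays. Of these 7 genes 6 were higher in PLN on every islet-high array, and their median difference was 2.38. The FVB and NOD.B10 arrays with MLN were read on the same scanner, and over all 24 genes their medians were 14.73 and 14.75, with 15 and 11 genes saturated. Of all 24 genes 12 were higher on the FVB array. Of the 7 unsaturated genes 7 were, and of the other 17 genes 5 were. Over all genes 1.32% differed at least 2-fold in PLN level between them. The Ins2 probe stood at 9.71 against 6.71 on these arrays.

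Over all 24 genes the median difference between the groups was 1.58 in PLN level and 2.34 in the other node, beside 0.04 and 0.05 over all genes. In PLN 10 of the 24 genes were higher on every islet-high array, and in the other node 12 were, beside 8.51% and 5.42% of all genes. Cpb1, a carboxypeptidase, Amy2, a pancreatic amylase, and Cel, a lipase, were saturated on 3 or 4 islet-high arrays, where their levels are lower limits. Their PLN levels were 14.76 to 17.31, 14.73 to 17.43 and 14.75 to 17.30 on the islet-high arrays and 14.18 to 15.01, 14.95 to 15.13 and 13.37 to 14.72 on the islet-low arrays. Reg1, a secreted lectin of acinar cells saturated on 1 islet-high array, overlapped at 14.64 to 17.33 against 13.34 to 14.80. Ctrb1, a chymotrypsinogen, had 13.98 to 17.15 against 12.02 to 13.42, and Ctrl, a chymotrypsin-like protease, had 13.42 to 16.55 against 11.12 to 12.34. The difference was 2.38 for Ctrb1 (SE 0.743, limma adjusted p = 0.323) and 2.64 for Ctrl (SE 0.786, adjusted p = 0.307). Both were highest on the NOD array with MLN. The fit with the strain as a block rests on 1 NOD array in each group, so its p-values are not given.

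The acinar ratio of PLN over the other node can be lowered where PLN is saturated. The median over all 24 genes was 0.23 on the BALB/c array, where the Ins2 ratio was 2.53, and the BALB/c MLN pool itself had an acinar median level of 15.13. It was 4.76, 3.09 and 4.92 on the FVB arrays with ILN and MLN and the NOD array with MLN. On the islet-low arrays it was 3.33 (NOD with ILN), 4.0 (NOD.B10 with ILN) and 4.75 (NOD.B10 with MLN). Over the 7 unsaturated genes the median ratio was 0.36 on the BALB/c array, 4.23, 3.32 and 5.11 on the other islet-high arrays in that order, and 2.62, 2.60 and 3.77 on the islet-low arrays. The groups overlapped through the BALB/c array and the FVB array with MLN. Of the 24 genes 0 separated the groups in the ratio, beside 3.69% higher and 3.56% lower over all genes. The fitted ratio difference of the list had a median of -0.42, which was 0.26 over the unsaturated genes, a setting chosen after the data were seen. It ranged from -2.06 to 2.16 over the planned settings, with its sign changed in 6 of them.

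**Figure D2:**
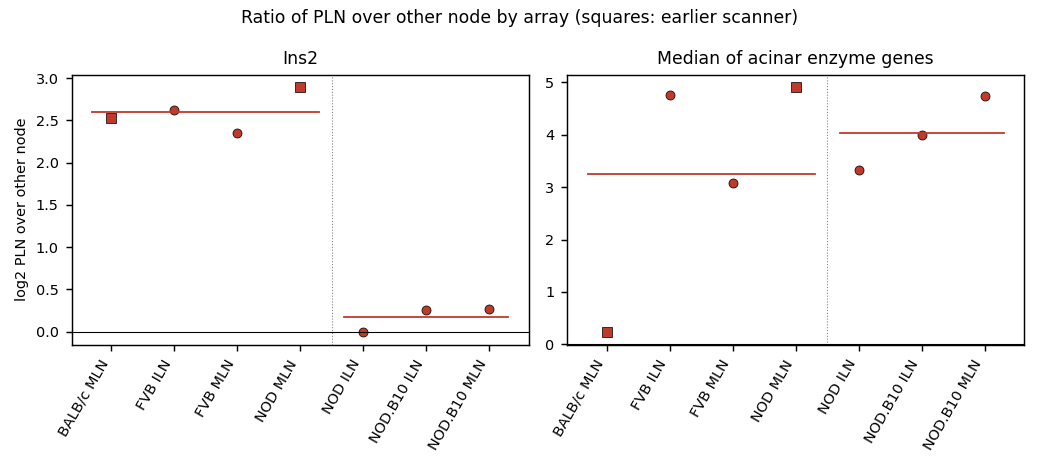
Log2 ratio of PLN over the other node on each array for the Ins2 probe that set the groups (left) and for the median of the 24 acinar enzyme genes (right), with squares for the earlier scanner and lines for group means. The Ins2 ratio falls to 0.26 or less on the 3 islet-low arrays, whereas the acinar median, which holds saturated genes, is 3.33 to 4.75 there and 0.23 on the BALB/c array.

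Secreted proteins and kallikreins of the exocrine pancreas were among the 10 named genes with the largest higher PLN levels, beside the globins. Of 22 acinar granule and Reg genes, 20 passed the filter, 7 were higher in PLN on every islet-high array, beside 8.51% of all genes, and the list median difference was 1.30. The differences of single genes in this list ran from -1.23 to 2.17. Within the later scanner 13 were higher and 3 lower without overlap, beside 18.2% and 17.1% of all genes. Klk1, the tissue kallikrein, had PLN levels of 11.36 (BALB/c), 12.21 and 12.07 (FVB) and 13.51 (NOD) on the islet-high arrays. It was 9.05 (NOD), 9.50 and 10.54 (NOD.B10) on the islet-low arrays, so the groups did not overlap. The difference was 2.59 (SE 0.534, limma adjusted p = 0.215). Klk1b3, Klk1b5, Klk1b8 and Klk13, related kallikreins whose probes may share targets, differed by 2.66, 2.69, 2.38 and 2.40. Rnase1, the pancreatic ribonuclease, differed by 2.71 with 14.12 to 17.17 against 11.82 to 13.47. Zg16, a zymogen granule protein, was saturated on 3 islet-high arrays and had 14.86 to 17.32 against 13.13 to 14.33. Its limma adjusted p was 0.278 in the main fit and 0.0254 under quantile scaling. Tff2, a trefoil factor, had 10.28 to 12.60 against 8.76 to 9.93, and Serpini2, a serpin, overlapped at 9.96 to 12.36 against 8.66 to 10.19. Within the later scanner the Klk1 difference was 2.45 and the list median 0.91. None of these genes passed the main test. The fit with the strain as a block rests on the NOD pair, so its p-values are not given.

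Keratins of simple epithelia had higher values on the same arrays and did not pass the main test. Of 15 duct epithelium genes, 10 passed the filter and 5 were higher in PLN on every islet-high array, beside 8.51% of all genes, with a list median difference of 0.42. Krt18 had PLN levels of 8.78 to 10.54 against 7.69 to 8.70, and Krt8, its partner, 7.86 to 9.36 against 7.12 to 7.47. Spp1, the secreted protein osteopontin, had 7.82 to 9.43 against 7.10 to 7.72. All 3 were highest on the NOD array with MLN. The limma adjusted p was 0.321 for Krt18 and 0.273 for Krt8.

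Red cell genes were higher on the islet-high arrays in both channels. Of 10 erythroid genes, 7 were on the array, 5 passed the filter, and 5 of 5 had higher PLN levels on every islet-high array, with 4 of 5 higher in the other node, beside 8.51% and 5.42% of all genes. Hba-a1, an alpha globin gene, had PLN levels of 16.35 on the BALB/c array, 12.47 and 12.43 on the FVB arrays and 15.39 on the NOD array with MLN. It was 10.22 on the NOD array with ILN, and 10.19 and 11.60 on the NOD.B10 arrays with ILN and MLN. The 2 arrays of the earlier scanner were the highest. The difference was 3.49 (SE 1.03, limma adjusted p = 0.306), and within the later scanner it was 1.78. Hbb-bt, a beta globin gene, differed by 3.16 (SE 0.883, adjusted p = 0.293) with 13.37 to 16.60 against 11.03 to 12.35. Alas2, the first enzyme of heme synthesis in red cells, had 7.52 to 9.63 against 6.70 to 7.25, and Slc4a1, the anion exchanger of the red cell membrane, 7.69 to 9.79 against 6.55 to 6.93. The list median difference was 1.38 in PLN and 1.08 in the other node, where Hba-a1 stood at 11.1 to 13.51 against 9.56 to 9.99. The fit with the strain as a block rests on the NOD pair, so its p-values are not given. The part of blood in the other differences was not tested.

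Heat shock genes, which encode chaperones induced by stress, were also higher on the islet-high arrays. Of 14 genes, 13 passed the filter, and 9 were higher in PLN and 7 in the other node on every islet-high array, beside 8.51% and 5.42% of all genes. The list median was 12.19, 11.61, 11.42 and 11.78 on the islet-high arrays (BALB/c, FVB with ILN, FVB with MLN, NOD) and 10.38, 10.45 and 10.75 on the islet-low arrays (NOD, NOD.B10 with ILN, NOD.B10 with MLN). Hsph1, a large chaperone, had PLN levels of 11.61, 11.21, 11.28 and 11.60 against 9.93, 9.22 and 10.25. The difference was 1.62 (SE 0.244, limma adjusted p = 0.180), and within the later scanner it was 1.44. Hspa1a, an inducible chaperone gene, had 7.95 to 9.47 against 7.11 to 7.31, and Hsp90aa1 had 12.46 to 14.53 against 11.66 to 11.82. Hsp90aa1 had a limma adjusted p of 0.0269 with the scanner as a block. That fit compares FVB pools with NOD and NOD.B10 pools, and arrays of the same strain may share a PLN pool. Strain and grouping cannot be told apart in it. The heat shock list differed by 0.97 in PLN and 0.80 in the other node, so both channels of an array were high or low together. In bulk RNA, fewer cells of a type and less RNA per cell cannot be told apart.

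**Figure D3:**
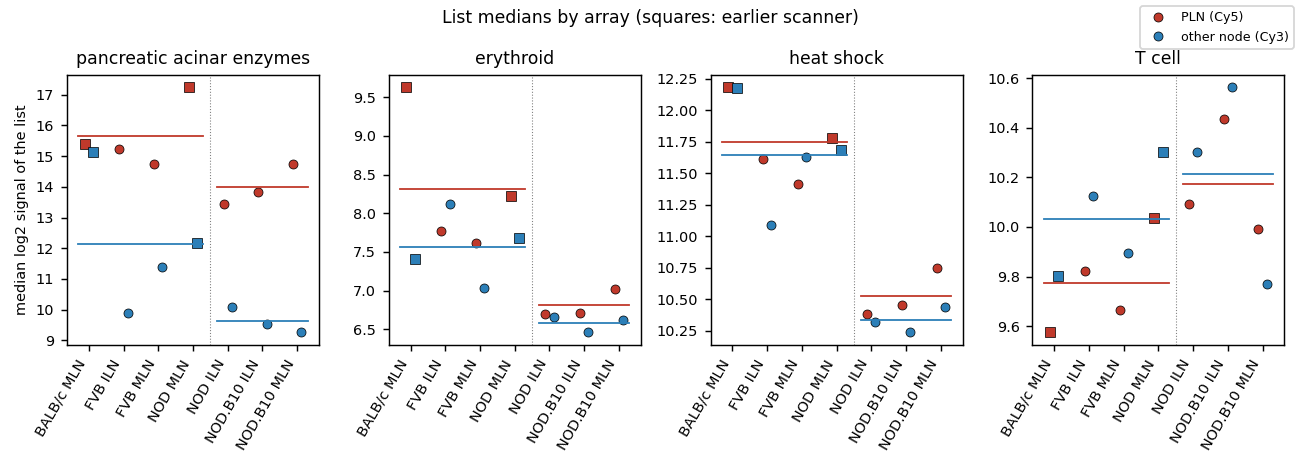
Median log2 level of the acinar enzyme, erythroid, heat shock and T cell lists on each array in PLN (red) and the other node (blue), with squares for the earlier scanner and lines for group means. The heat shock medians of PLN are 11.42 to 12.19 on the islet-high and 10.38 to 10.75 on the islet-low arrays, while the T cell medians of the groups overlap.

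In the other direction, 5.13% of all genes were lower on every islet-high array. Cirbp, the cold-inducible RNA-binding protein, had PLN levels of 9.51 (BALB/c), 8.94 and 8.82 (FVB) and 9.08 (NOD) against 10.26 (NOD), 10.27 and 10.03 (NOD.B10), a difference of -1.1 (SE 0.172, limma adjusted p = 0.180). Pde7a, a phosphodiesterase of cyclic AMP, had 7.66 to 7.99 against 8.83 to 9.24, and Zap70, a kinase of the T cell receptor, 8.32 to 8.65 against 9.22 to 9.48. Both had an adjusted p of 0.144. With the scanner as a block Cirbp (0.0198), Pde7a (0.0198) and Zap70 (0.0382) had a limma adjusted p under 0.05. That fit compares FVB pools with NOD and NOD.B10 pools, so strain and grouping cannot be told apart in it. Arrays of the same strain may also share a PLN pool. The other named genes that were lower were Rinl (-1.39), H2-Bl (-1.29), Mgst2 (-1.15), Creb3l3 (-1.06), Ptms (-1.03) and Trim34a (-0.99). Rinl was 7.99 to 8.16 on the FVB arrays and 9.81 to 10.82 on all others, and Mgst2 was 8.60 to 8.62 on FVB and 10.12 to 10.70 on all others, so these 2 followed the FVB strain more than the grouping.

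**Figure D4:**
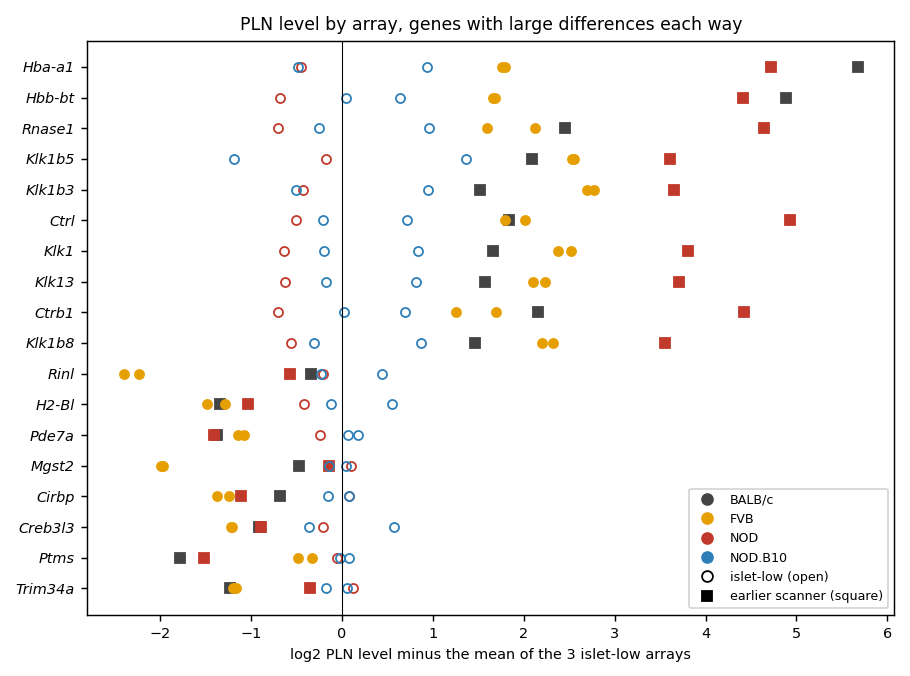
Log2 PLN level of each array minus the mean of the 3 islet-low arrays for genes among the 10 largest differences in each direction, colored by strain, with open symbols for islet-low arrays and squares for the earlier scanner. Kallikrein and protease genes lie highest on the NOD array with MLN and globins on the BALB/c array, and none of the genes shown passed the test.

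In the ratio of PLN over the other node, the largest difference was that of Slpi, a secreted protease inhibitor. Its ratio was 0.90 on the BALB/c array, 2.19 and 0.74 on the FVB arrays with ILN and MLN, and 0.02 on the NOD array with MLN, against -1.05, -1.58 and -0.34 on the islet-low arrays. The fitted difference was 2.12 (SE 0.524, limma adjusted p = 0.415). The PLN level of Slpi overlapped between the groups, at 10.88 to 13.34 and 10.26 to 11.48. Slc25a22, a mitochondrial glutamate carrier that the pancreas expresses, had ratios of 0.16 to 1.95 against -0.09 to 0.08 and a fitted difference of 1.02 (SE 0.401, adjusted p = 0.474). Pck1, an enzyme of glucose and glyceride synthesis in liver and fat, had ratios of -0.73 to 0.12 against 0.31 to 2.09. Its fitted difference was -1.49 (SE 0.418, adjusted p = 0.432). Syt6 and Apoa4 also had lower ratios on every islet-high array, with fitted differences of -0.81 and -0.75.

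NOD was the strain present in both groups, with 1 array in each, so the pair alone gives no spread. The fit with the strain as a block tests the same contrast on the spread between the 2 FVB arrays and between the 2 NOD.B10 arrays, which may share a PLN pool. Its p-values are therefore not given, and its count of genes is not read as a result. The NOD array with MLN was islet-high and read on the earlier scanner, and the NOD array with ILN was islet-low and read on the later scanner. Of 18770 genes, 1028 (5.48%) were at least 2-fold higher and 275 (1.47%) at least 2-fold lower in PLN on the array with MLN. Ins2, Ins1 and Gcg were not well above background on the array with ILN, and were at least 17.0-fold, 4.53-fold and 2.56-fold higher on the array with MLN. The acinar enzyme list differed by a median of 3.59 and the erythroid list by 1.62, beside 0.08 over all genes. Ctrl differed by 5.43 and Hba-a1 by 5.17. Islet, acinar and red cell genes were thus all higher on the NOD array with MLN.

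Aire and Deaf1, regulators of tissue antigen expression, did not separate the groups. Aire, the regulator that drives expression of tissue antigens in thymus and lymph node stroma, had PLN levels of 8.61 (BALB/c), 7.34 and 7.17 (FVB) and 8.31 (NOD) against 7.90 (NOD), 8.65 and 7.88 (NOD.B10). The ranges overlapped, and the limma adjusted p was 0.792. Deaf1, another transcription factor linked to tissue antigens in the PLN, had 7.76, 8.47, 7.84 and 10.56 against 7.10, 7.61 and 7.84. The NOD array with MLN stood above all others at a ratio of 3.31, where the other arrays had 0.15 to 1.05. Without that array the levels were 7.76 to 8.47 against 7.10 to 7.84, and the groups overlapped. The limma adjusted p of Deaf1 was 0.518. Of 28 antigens of other tissues, 8 passed the filter and 0 separated the groups, where 8.51% of all genes were higher and 5.13% lower. With 8 genes this count cannot be read as a result about these antigens.

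Genes of lymph node cells had small list medians with members in both directions. The median difference in PLN level was -0.07 for T cell genes (1 higher and 3 lower of 21), 0.06 for B cell genes (3 higher and 1 lower of 18), -0.14 for dendritic cell genes (0 higher and 4 lower of 14) and 0.02 for cell cycle genes (1 higher and 0 lower of 19), where 8.51% of all genes were higher and 5.13% lower. The differences of single genes ran from -0.85 to 0.85 for T cell genes and from -1.01 to 1.13 for B cell genes. The signs of the T cell, B cell and cell cycle medians changed under some settings, the scanner as a block among them for B cell and cell cycle genes. The dendritic cell median stayed below 0 under every setting, at -0.34 to -0.12. Madcam1, an addressin of gut-draining nodes, was lower at 7.89 to 8.08 against 8.55 to 9.43, a difference of -0.86 (SE 0.206, limma adjusted p = 0.241). H2-Ea, a class II gene that several haplotypes do not express, was at 10.42 on the BALB/c array, 7.41 and 7.49 on the FVB arrays and 6.03 to 6.48 on every NOD and NOD.B10 array. It followed the strain, since the NOD array with MLN was islet-high and had 6.03.

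**Figure D5:**
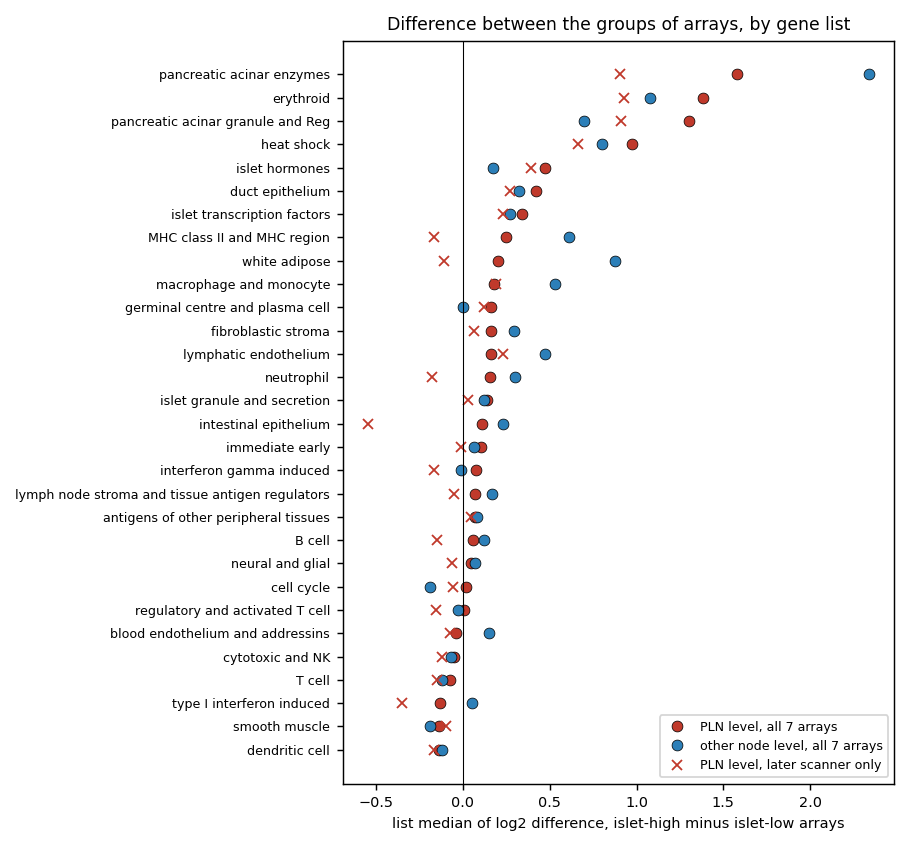
Median log2 difference of each of the 30 gene lists, islet-high minus islet-low arrays, in the PLN level (red points), the level of the other node (blue points) and the PLN level within the later scanner (crosses). The acinar enzyme, erythroid, acinar granule and heat shock lists lie farthest to the right in PLN, at 1.58, 1.38, 1.30 and 0.97. The T cell, B cell and dendritic cell lists lie at -0.07, 0.06 and -0.14.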

How the data were processed

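RNA of pooled lymph nodes was measured on 7 dual-dye Agilent arrays with PLN in Cy5 and MLN or ILN in Cy3, and no dyes were swapped. The scanner files of Agilent Feature Extraction 8.5.1.1 hold spot and background intensity in linear units, and LogRatio gives red over green as log10, per the file headers. Deposited spot flags (saturation, outlier, clear signal over background) are coded 0 or 1. The authors' value table is in log2. Set against LogRatio (r 0.999892 to 0.999995), it gives red over green, uncentred, with column medians of 0.0073 to 0.0935, and how it was made was not stated. In the labels the strain entry of the NOD.B10 arrays reads NOD, and their titles were followed.

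Background was corrected with normexp (offset 50), and arrays were normalized by loess and, for levels, Aquantile in limma 3.58.1 (R 4.3.3). Levels per channel are open to dye bias. Of 41174 probes, 22072 were named through RefSeq accessions (GRCm38.p6), 2100 through the symbol in the files, and 17002 had no symbol. Probes well above background in PLN on at least 3 arrays entered the level fit, and in either channel on at least 3 arrays the ratio fit, with the brightest probe per gene. Both used lmFit and eBayes, two-sided, with Benjamini-Hochberg adjustment. Residual degrees of freedom were 5 and 4. A fold marked "at least" sets the bright group's mean against a floor per array, its dimmest clearly detected probe or the dim probe itself if higher. P-values measure the spread between these pools, which may be technical, and the number of arrays limits the precision. The scripts were tested on data with known answers.

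Members, gene lists (30) and named genes were chosen with earlier results of these data known. Named genes were the islet hormone genes, the 10 largest called genes in each direction of each fit with a symbol, no overlap of the groups and the same sign with each other node (filled, where fewer were called, with those at an unadjusted p under 0.05), up to 3 members of each list, and Aire, Deaf1, H2-Ea, Reg1, Cpb1, Cel and Amy2. Alternatives varied the background correction, filter, scaling, blocks and arrays. Some genes that the naming rule selects are not reported here.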

Additional observations from a re-analysis of the deposited data

Results flagged for a closer look

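Among 188 sets of 4 islet-high values looked at, 16 had an array far from the others by Dixon's criterion (8.51%, where chance gives about 1 in 20). The NOD array with MLN stood apart in log2 PLN level for Ctrl (16.55), Reg1 (17.33), Ero1b (9.45), Trim34a (7.54) and the macrophage and monocyte list (median 8.75, low). The BALB/c array stood apart in PLN level for Jchain, a plasma cell gene (14.08), Slpi (13.34) and the B cell list (median 9.73), and in the ratio for the list of lymph node stroma and tissue antigen regulators (0.15) and the intestinal epithelium list (-0.31). The FVB array with ILN stood apart in the ratio for Hsp90aa1 (0.72), Hspa1a (0.99), the heat shock list (0.52), the germinal centre and plasma cell list (0.59) and the smooth muscle list (-0.33). The FVB array with MLN had the lowest Madcam1 level (7.89). For Gcg, Slpi and the median of the islet hormone list the ratio was above 0 on every islet-high array and below 0 on every islet-low array, with mean differences of 0.998, 1.95 and 0.40, which were not tested. The list median restates the grouping in part, since the list holds Ins2 and on the NOD array with ILN the median is the Ins2 ratio itself.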

How the results depend on the processing

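The 4 islet-high arrays kept an Ins2 ratio above 2 under every alternative tried, while with offset 0, LogRatio and the deposited table only the NOD array with ILN was under 0.5, the NOD.B10 arrays being at 0.80 and 0.55, 0.69 and 1.24, and 0.65 and 1.16. The count of genes called in PLN level, 0 as reported, was 1 with offset 0, 1 with the processed red signal, 3 with quantile scaling, 192 with the scanner as a block, 310 within the later scanner and 592 with the strain as a block, and 0 to 25 without single arrays. The lone gene with offset 0 and with the processed red signal belongs to the islet lists. The count with the strain as a block rests on 1 NOD array in each group and is not read as a result. Neither are the ratio counts above 0 without single arrays, since those fits rest on 1 other node with 1 array in a group. The count in the ratio was 0 under every setting but the removal of single arrays, which gave 0 to 568. The 1303 genes at least 2-fold apart in the NOD pair became 2442 with offset 0 and 4145 with the processed red signal. The cause was not tested. Without saturated genes, a setting chosen after the data were seen, the acinar median was 2.38 in PLN level and 0.26 in the ratio, where it is -0.42 over all 24 genes. Over 30 list medians, 17 changed sign in PLN level and 25 in the ratio under at least 1 alternative, while the acinar, erythroid and heat shock lists kept their sign in PLN level, at 0.90 to 3.59, 0.93 to 2.44 and 0.67 to 1.15. Of 127 genes 33 changed sign in PLN level, and of 129 genes 74 in the ratio. The replicate numbers only name arrays of each other node and give no pairs. Within strains only NOD had an array in each group, so no paired analysis over strains was possible. The fit with the strain as a block is the within-strain comparison.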

Other observations

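Reg2, an acinar secreted protein, was chosen after its values were seen. Its PLN level was 7.79 and 7.75 on the FVB arrays, 10.36 on the BALB/c array, 15.30 and 10.86 on the NOD arrays with MLN and ILN, and 10.68 and 13.06 on the NOD.B10 arrays with ILN and MLN. The FVB arrays were the lowest, while their medians over the unsaturated acinar genes, 13.64 and 13.42, lay within the range of the other arrays. H2-Eb1, a class II gene, was likewise low on the FVB arrays, at 8.11 and 7.88, and at 12.14 to 14.10 on all others.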
